A study of Mus musculus with 15 samples.

Results

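CD103 is the alpha E integrin chain, encoded by Itgae, and its transcription in T cells is known to respond to TGF-beta. A set of 10 genes of CD103 and the TGF-beta receptor pathway was followed across sorted mature thymocytes: Itgae and Itgb7 (the integrin chains), Tgfb1 (a ligand), Tgfbr1 and Tgfbr2 (the signalling receptors), Tgfbr3 and Eng (co-receptors), Smad3 (a signal carrier), and Smad7 and Skil (inhibitors). They were taken by gene symbol from the table of counts, and all 10 of 10 were among its 53762 genes and among the 16550 genes that passed the filter on low counts. Itgae reached its highest level in wild-type CD8 cells, stood at 12.2% to 25.2% of that level in mutant cells and at 0.971% in wild-type CD4 cells, whereas Eng was highest in the mutant cells.

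RNA was sequenced from 15 libraries of thymocytes of C57BL/6 background, 3 in each of 5 groups. All cells were sorted as CD44lo TCRbhi CD24lo CD69lo, a gate for mature thymocytes, and the design text describes irradiated hosts that had received wild-type and mutant bone marrow together. WT CD4 SP cells (CD4+CD8-, single-positive) carried both CD45.1 and CD45.2 and are labelled as from B2m-/-, animals without a chain that MHC class I needs. WT CD8 SP cells (CD4-CD8+) carried the same CD45 markers and are labelled as from I-Ab-/-, animals without an MHC class II chain, so lineage and this label cannot be told apart between both WT groups. Whether I-Ab-/- names their host is not stated, and the design text names B2m-/- hosts alone. The mutant cells were CD45.2+ and Thpok fl/fl Runx3 fl/dYFP with Cd4-Cre, and all came from B2m-/- hosts. Cd4-Cre is driven by the Cd4 promoter and deletes floxed sequence in developing T cells. The Thpok-RKF- mutant gave a CD8 SP group (CD4-CD8+) and a CD4+CD8+ group, and the mutant with Thpok-RKF+ gave a CD4+CD8+ group. The labels do not explain Thpok-RKF and give no age, and both genotype and the B2m-/- or I-Ab-/- label differ between mutant CD8 SP and WT CD8 SP cells. Nothing in them ties the replicates of a group to different animals, so the spread between the 3 samples of a group may be technical. Each p-value rests on that spread, estimated in a shared fit of all 15 libraries, groups outside the comparison included.

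Libraries held 37311823 to 48607260 counts in genes, and values below are CPM, counts scaled to a common size with TMM-scaled library sizes. Zbtb7b, which encodes Thpok, the helper-lineage factor, lay at 27.4 to 79.2 CPM in WT CD4 SP, 1.67 to 2.95 in the Thpok-RKF- libraries, at most 0.376 in WT CD8 SP, and 768 to 823 in the Thpok-RKF+ libraries. Runx3, the cytotoxic-lineage factor, averaged 28.8 CPM in the WT CD4 SP group, 206 in the WT CD8 SP group and 267, 279 and 305 in the mutants. The labels do not give the deleted part of Runx3 or say whether Thpok-RKF reads count as Zbtb7b, so these totals do not check the Runx3 deletion. Cd3e, a T cell receptor complex gene, was at 572 to 841 CPM in every library. A library of WT CD4 SP and one of Thpok-RKF+ CD4+CD8+, both replicate 1, had the most signal of the macrophage gene Lyz2, 28.4 and 24.5 CPM. The Thpok-RKF+ replicate 1 library also had 11.2% of its reads outside genes, against 5.28% and 5.65% in its group. The Thpok-RKF- libraries lay between, at 7.23% to 9.93%.

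TGF-beta is secreted in a latent form and, once freed, is bound by Tgfbr2, which recruits and activates Tgfbr1. The active receptor phosphorylates Smad2 and Smad3, which enter the nucleus with Smad4, while Smad7 blocks the receptor and Skil holds Smad complexes in check. In mature T cells CD103 pairs with the beta 7 chain and binds E-cadherin on epithelial cells, and in the thymus CD103 is a known surface marker of CD8 cells.

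The 3 WT CD4 SP libraries held 6.24, 10.3 and 8.76 CPM of Itgae, and the 3 WT CD8 SP libraries 888, 867 and 850. In the mutant without Thpok-RKF it came to 210, 225 and 221 CPM in the CD8 SP gate and 113, 99.0 and 106 in the CD4+CD8+ gate, and with Thpok-RKF to 174, 145 and 119 in the CD4+CD8+ gate. Every WT CD8 SP library stood far above all others, every WT CD4 SP library far below, and the mutant libraries lay between without reaching either. As means, the mutant groups held 25.2%, 12.2% and 16.8% of the WT CD8 SP level, and WT CD4 SP held 0.971%.

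Itgae was 103-fold lower in WT CD4 SP than in WT CD8 SP (log2 fold change -6.68 ± 0.20 SE, adjusted p = 1.19e-10, edgeR quasi-likelihood F test, Benjamini-Hochberg over all genes tested). That was the 185th largest absolute difference of the 16550 genes. Mutant CD8 SP cells, sorted in the same coreceptor gate as WT CD8 SP, had 3.97-fold less Itgae (log2 -1.99 ± 0.16, adjusted p = 1.19e-06). Set against WT CD4 SP, the same cells had 25.9-fold more (log2 4.70 ± 0.18, adjusted p = 1.19e-09).

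Within the Thpok-RKF- mutant, Itgae was 2.06-fold lower in CD4+CD8+ than in CD8 SP cells (log2 -1.04 ± 0.16, adjusted p = 0.00177). Between Thpok-RKF+ and Thpok-RKF- CD4+CD8+ cells the difference was 1.38-fold (log2 0.46 ± 0.16), the libraries did not overlap, and the test was not passed (adjusted p = 0.205). The CD4+CD8+ groups exceeded WT CD4 SP 12.6-fold (adjusted p = 7.56e-09) and 17.3-fold (adjusted p = 2.63e-09) in Itgae, without and with Thpok-RKF. From low to high the Itgae order was therefore WT CD4 SP, CD4+CD8+ cells without and then with Thpok-RKF, Thpok-RKF- CD8 SP, and WT CD8 SP, and every step passed except the second. The step from Thpok-RKF+ CD4+CD8+ to Thpok-RKF- CD8 SP was narrow (log2 -0.58, adjusted p = 0.0441, where 5.49% of all genes tested passed). It was lost without any 1 of Thpok-RKF- CD8 SP replicates 1, 2 and 3 or Thpok-RKF+ replicates 2 and 3, where adjusted p ran from 0.0697 to 0.197, and in a fit of the 2 groups alone (adjusted p = 0.105). RNA of sorted pools cannot separate fewer cells with CD103 from less Itgae RNA per cell. Foxp3, the regulatory T cell factor, was at 31.5 to 53.7 CPM in WT CD4 SP and at 1.42 to 2.68 in WT CD8 SP. Of the 6 regulatory T cell markers listed, 5 were higher and 1 lower in WT CD4 SP than in WT CD8 SP. The part of such cells in the Itgae levels was not tested.

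**Figure D1:**
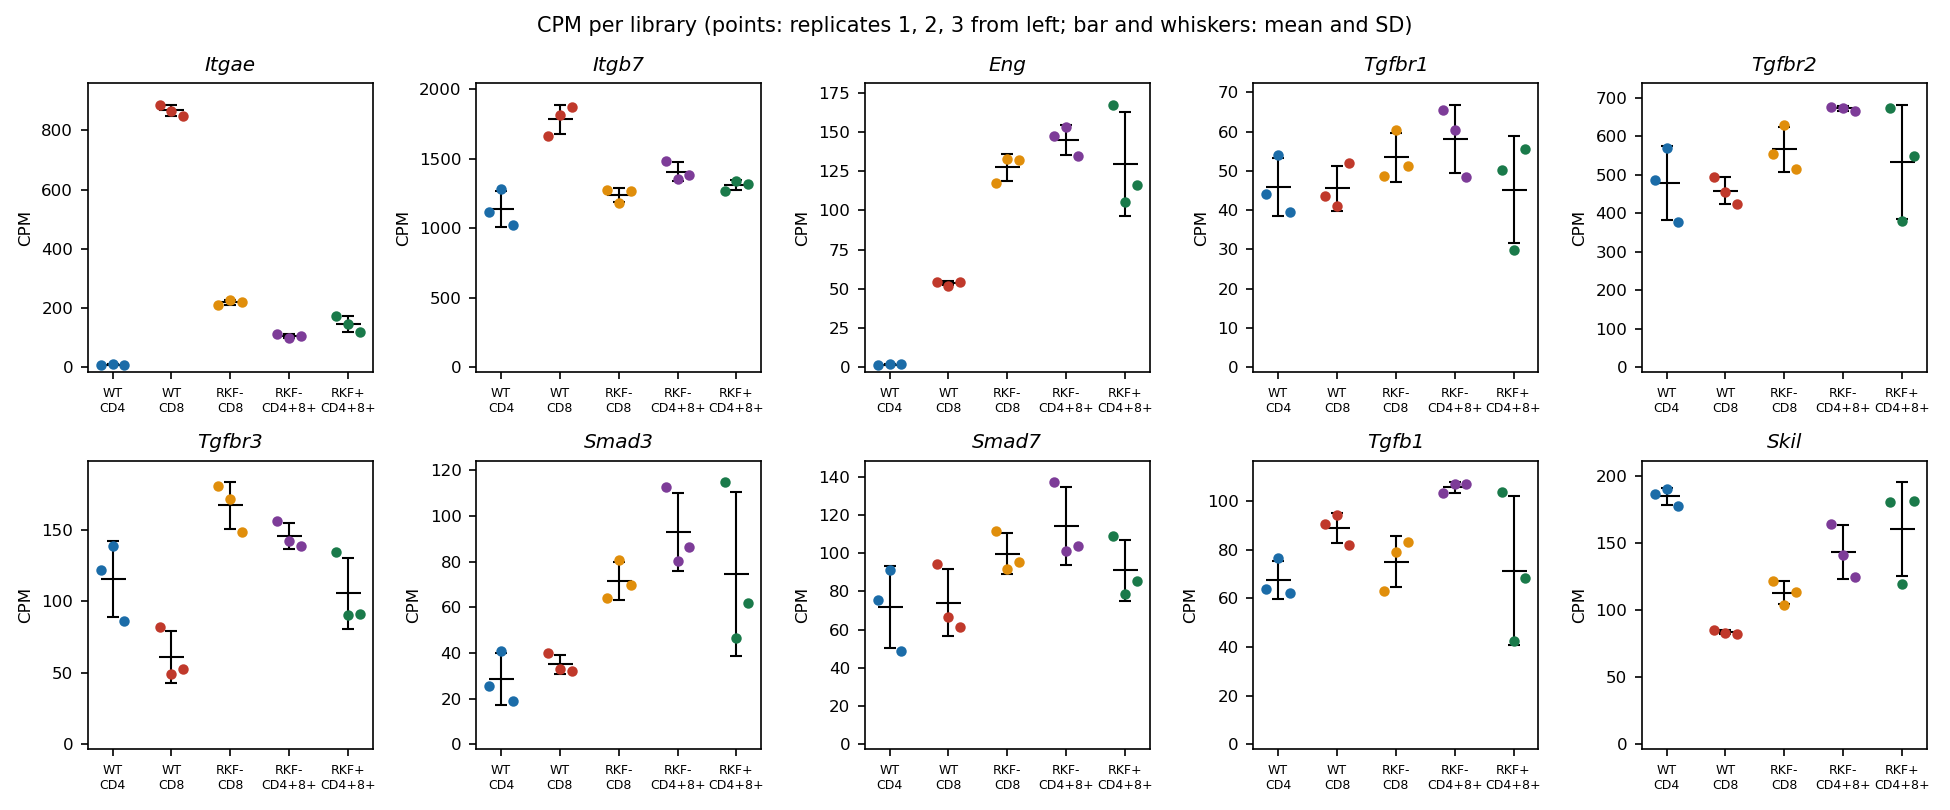
CPM (vertical axis, linear, from 0) of the 10 genes in each library, with the 5 groups on the horizontal axis; points are replicates 1, 2 and 3 from left to right, and bars with whiskers are the mean and SD. Itgae runs from 6.24 to 10.3 CPM in WT CD4 SP and from 850 to 888 in WT CD8 SP, while Eng is highest in the mutant groups.

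Itgb7, the beta chain that also pairs with the alpha 4 integrin chain, was present in every group: 1115, 1280 and 1026 CPM in WT CD4 SP and 1664, 1815 and 1868 in WT CD8 SP. Mutant libraries had 1272, 1182 and 1268 CPM (Thpok-RKF- CD8 SP), 1481, 1351 and 1379 (Thpok-RKF- CD4+CD8+), and 1267, 1339 and 1317 (Thpok-RKF+ CD4+CD8+). The WT CD8 SP libraries were the highest of all, and the other 4 groups partly overlapped. Itgb7 was 1.56-fold lower in WT CD4 SP than in WT CD8 SP (log2 -0.64 ± 0.10, adjusted p = 0.000283) and 1.44-fold lower in Thpok-RKF- CD8 SP than in WT CD8 SP (log2 -0.52 ± 0.10, adjusted p = 0.00118). Thpok-RKF- CD8 SP and WT CD4 SP overlapped in Itgb7 and did not pass the test (log2 0.12 ± 0.09, adjusted p = 0.416), unlike in Itgae.

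Smaller differences in Itgb7 passed narrowly. It was 1.23-fold higher in Thpok-RKF- CD4+CD8+ than in WT CD4 SP (log2 0.30 ± 0.09, adjusted p = 0.0416). That call was lost without WT CD4 SP replicate 1 (adjusted p = 0.133) or 3 (0.214), without Thpok-RKF- CD4+CD8+ replicate 1 (0.152), 2 (0.105) or 3 (0.124), without a filter on low counts (0.134), without the 5 libraries numbered 1 (0.141), and with only the compared groups in the fit (0.0765), at log2 0.20 to 0.32. In the order of Itgb7 levels, the step from Thpok-RKF- CD4+CD8+ up to WT CD8 SP was the only one of 4 to pass (log2 -0.34, adjusted p = 0.0276, where 12.1% of all genes tested passed). It was lost without WT CD8 SP replicate 2 (adjusted p = 0.115) or 3 (0.141), without Thpok-RKF- CD4+CD8+ replicate 1 (0.0659), 2 (0.127) or 3 (0.113), and without a filter on low counts (0.140), at log2 -0.36 to -0.30.

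Eng encodes endoglin, a co-receptor that presents TGF-beta family ligands and is best known from endothelial cells. Its counts came to 1.17, 1.74 and 1.92 CPM in WT CD4 SP and 54.2, 51.9 and 54.1 CPM in WT CD8 SP. In the mutants they were 118, 133 and 132 CPM (Thpok-RKF- CD8 SP), 147, 153 and 135 (Thpok-RKF- CD4+CD8+), and 167, 105 and 116 (Thpok-RKF+ CD4+CD8+). All 9 mutant libraries lay above all WT CD8 SP libraries, which lay above all WT CD4 SP libraries, and the mutant means were 239%, 272% and 243% of the WT CD8 SP mean.

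Eng was 33.1-fold lower in WT CD4 SP than in WT CD8 SP (log2 -5.05 ± 0.21, adjusted p = 1.63e-09) and 2.39-fold higher in Thpok-RKF- CD8 SP than in WT CD8 SP (log2 1.26 ± 0.17, adjusted p = 0.000113). Against WT CD4 SP it was higher 79.0-fold in Thpok-RKF- CD8 SP (adjusted p = 8.42e-10), 89.9-fold in Thpok-RKF- CD4+CD8+ (adjusted p = 6.18e-10) and 80.5-fold in Thpok-RKF+ CD4+CD8+ cells (adjusted p = 8.06e-10). Neighbouring mutant groups in the order of Eng levels did not pass a difference (adjusted p = 0.967 and 0.715). Itgae and Eng thus moved the same way between both WT groups and opposite ways between mutant CD8 SP and WT CD8 SP cells.

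Of the 7 endothelial marker genes, Cdh5, Kdr, Tek, Tie1, Emcn and Vwf were at or near 0, with at most 1.54 CPM in any library (Cdh5). Pecam1, which T cells also transcribe, was at 156 to 304 CPM. In the GENCODE M21 annotation an Eng exon overlaps an exon of Fpgs on the opposite strand, and the strand setting of the counting is not given in the sources used here. Fpgs itself was at 20.4 to 41.0 CPM over all groups, with group means from 28.7 (Thpok-RKF+ CD4+CD8+) to 37.3 CPM (WT CD8 SP). Its part in the Eng counts was not tested.

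**Figure D2:**
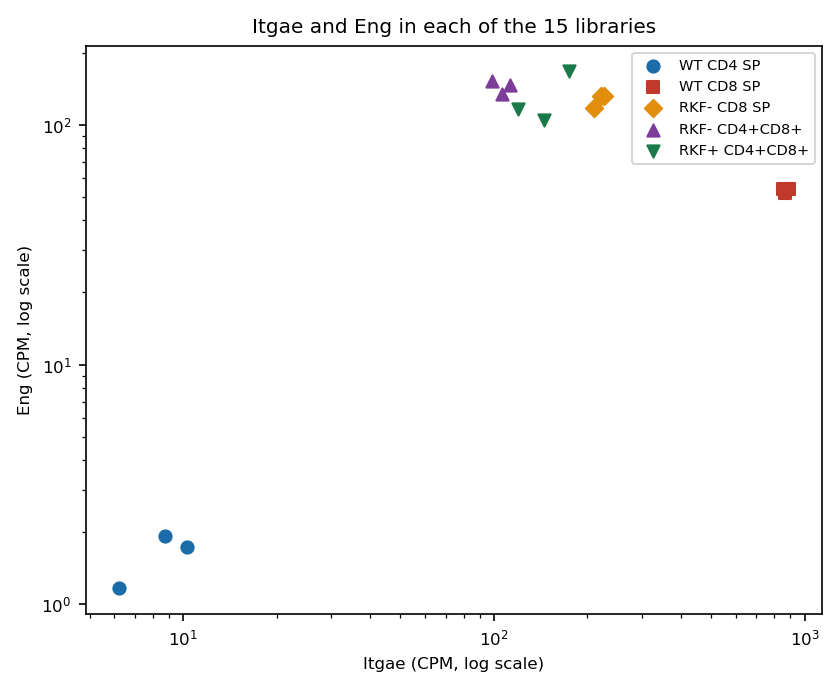
Eng (vertical, CPM) against Itgae (horizontal, CPM) in each of the 15 libraries, both on log scales, with 1 symbol and colour for each group. WT CD4 SP libraries sit at the lower left; the mutant libraries sit above and to the left of WT CD8 SP, with more Eng (105 to 167 CPM against 51.9 to 54.2) and less Itgae (99.0 to 225 CPM against 850 to 888).

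Promoter sequences are shown for Eng and Smad3, so that the letters near their starts can be compared. In both genes every mutant library was above every WT library, a pattern whose share among all genes tested was not counted. Tgfbr2 and Smad7 also had higher means in every mutant group than in either WT group, but with libraries that overlapped. The RefSeq table of mouse promoters (GRCm38.p6, another build than the mm39 that the submitters' processing notes name) had entries for 6 of the 10 genes: Eng, Tgfbr1, Tgfbr2, Tgfb1, Smad3 and Itgb7. Itgae, Tgfbr3, Smad7 and Skil were not matched. The 250 bases before the start are given 5′ to 3′ on the gene's strand, at chr2:32646345-32646594 (plus strand) for Eng and chr9:63757995-63758244 (minus strand) for Smad3, with CAGAC and its reverse complement GTCTG, the short Smad-binding letters, in capitals.
Eng: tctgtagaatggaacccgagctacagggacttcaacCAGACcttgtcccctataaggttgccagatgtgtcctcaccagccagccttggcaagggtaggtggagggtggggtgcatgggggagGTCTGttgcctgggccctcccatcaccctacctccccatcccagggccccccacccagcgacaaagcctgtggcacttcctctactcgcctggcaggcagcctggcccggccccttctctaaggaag
Smad3: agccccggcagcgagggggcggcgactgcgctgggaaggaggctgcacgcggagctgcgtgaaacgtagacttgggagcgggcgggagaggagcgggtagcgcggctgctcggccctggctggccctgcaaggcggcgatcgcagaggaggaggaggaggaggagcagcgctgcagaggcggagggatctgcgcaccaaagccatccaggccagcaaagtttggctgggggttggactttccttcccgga
Eng has 1 match on each strand, beginning 214 and 127 bases before the start, and Smad3 has none. Over the 32851 promoter windows of the same length in that table, 42.2% hold CAGAC on either strand. Tgfbr2, Itgb7 and 1 of the listed Tgfbr1 starts also hold it, and Tgfb1 does not. TGTGGT, letters bound by Runx proteins, is in none of the windows of these 6 genes on either strand, against 14.0% of all windows, and GTCTAGAC, a palindrome of Smad letters, is in none of them either, against 0.167%. No match of one of these motifs overlaps a match of another. These letters say nothing of binding in these cells.

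Tgfbr3 encodes betaglycan, which binds ligand and hands it to Tgfbr2. Levels were 122, 139 and 86.5 CPM in the WT CD4 SP group, 82.1, 48.9 and 52.5 in WT CD8 SP, and 181, 172 and 149 in Thpok-RKF- CD8 SP. CD4+CD8+ libraries had 156, 142 and 139 CPM without Thpok-RKF and 135, 90.9 and 91.4 with it. WT CD8 SP libraries were the lowest of all. Tgfbr3 was 1.90-fold higher in WT CD4 SP than in WT CD8 SP (log2 0.92 ± 0.22, adjusted p = 0.0088) and 2.74-fold higher in Thpok-RKF- CD8 SP than in WT CD8 SP (log2 1.45 ± 0.22, adjusted p = 0.000281). Mutant CD8 SP and WT CD4 SP libraries did not overlap, but the test was not passed (log2 0.53 ± 0.22, adjusted p = 0.106; 0.032 with the replicate number as a block).

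In the order of Tgfbr3 levels only the lowest step passed, from WT CD8 SP to Thpok-RKF+ CD4+CD8+ (log2 0.79, adjusted p = 0.0293, where 11.0% of all genes tested passed). It was lost without WT CD8 SP replicate 2 (adjusted p = 0.126) or 3 (0.114), without Thpok-RKF+ replicate 1 (0.0919), and with only these groups in the fit (0.0946). In 4 of the 5 groups the library numbered 1 had the most Tgfbr3. An exon of the predicted gene Gm43422 overlaps Tgfbr3 on the same strand and had 0.677 to 3.24 CPM.

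The signalling receptors showed no difference that passed in any of the 7 comparisons. Tgfbr2 was at 488, 569 and 377 CPM in the WT CD4 SP group, 496, 456 and 424 in WT CD8 SP, 555, 629 and 515 in Thpok-RKF- CD8 SP, 676, 675 and 666 in Thpok-RKF- CD4+CD8+, and 674, 379 and 550 in Thpok-RKF+ CD4+CD8+. The 3 Thpok-RKF- CD4+CD8+ libraries were tightly grouped and above every library of both WT groups, while the Thpok-RKF+ libraries spanned nearly the whole range. For Thpok-RKF- CD4+CD8+ against WT CD4 SP, Tgfbr2 did not pass the test (log2 0.49 ± 0.18, adjusted p = 0.0748). It passed without WT CD4 SP replicate 2 (adjusted p = 0.0483), by DESeq2 (0.0497) and with only these groups in the fit (0.0469).

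Tgfbr1 libraries all lay between 29.8 and 65.5 CPM, both extremes in CD4+CD8+ groups. Its group means were 45.9 CPM in WT CD4 SP, 45.5 in WT CD8 SP, 53.4 in Thpok-RKF- CD8 SP, 58.2 in Thpok-RKF- CD4+CD8+ and 45.2 in Thpok-RKF+ CD4+CD8+, and all neighbouring groups overlapped. No neighbouring step of Tgfbr1 or Tgfbr2 passed (adjusted p from 0.517 to 0.989 and from 0.696 to 0.876).

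Tgfb1, the ligand that T cells themselves make, stood at 63.7, 76.5 and 62.2 CPM in the WT CD4 SP group, 90.7, 94.0 and 82.0 in WT CD8 SP, and 63.1, 78.8 and 83.0 in Thpok-RKF- CD8 SP. In CD4+CD8+ cells the values were 103, 107 and 107 CPM without Thpok-RKF and 103, 42.3 and 68.2 with it, where replicate 1 matched the Thpok-RKF- libraries and the other 2 were lower. No comparison passed for Tgfb1. Between Thpok-RKF+ and Thpok-RKF- CD4+CD8+ the value was log2 -0.57 ± 0.23 (adjusted p = 0.282), and it passed without Thpok-RKF+ replicate 1 (log2 -0.92, adjusted p = 0.0105) and without the 5 libraries numbered 1 (log2 -0.95, adjusted p = 0.0253). In these settings 9.84% and 10.7% of all genes passed, against 0.979% with every library, so 1 gene of 10 is the background share. Replicate 1 is the library with 11.2% of reads outside genes, against 5.28% and 5.65% in Thpok-RKF+ replicates 2 and 3. The Thpok-RKF- CD4+CD8+ libraries had 8.32% to 9.83%. The part of these differences in the result was not tested. Against WT CD4 SP, Tgfb1 in Thpok-RKF- CD4+CD8+ was at log2 0.65 ± 0.23 (adjusted p = 0.0657; 0.0329 by DESeq2 and 0.00905 with only these groups in the fit).

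Smad3, the receptor-activated signal carrier, had 25.6, 40.9 and 18.7 CPM in WT CD4 SP and 39.8, 32.8 and 32.3 in WT CD8 SP. Levels in the mutants were 64.1, 80.6 and 69.9 CPM in Thpok-RKF- CD8 SP, 113, 80.1 and 86.3 in Thpok-RKF- CD4+CD8+, and 115, 46.5 and 61.9 in Thpok-RKF+ CD4+CD8+. All 9 mutant libraries were above all 6 WT libraries, and the WT groups overlapped (log2 -0.30 ± 0.31, adjusted p = 0.575). Smad3 was higher than in WT CD4 SP by 2.52-fold in Thpok-RKF- CD8 SP (log2 1.33 ± 0.31, adjusted p = 0.00911), 3.27-fold in Thpok-RKF- CD4+CD8+ (log2 1.71 ± 0.31, adjusted p = 0.00259) and 2.62-fold in Thpok-RKF+ CD4+CD8+ (log2 1.39 ± 0.31, adjusted p = 0.0127). The last was lost without WT CD4 SP replicate 1 (adjusted p = 0.0603) or 3 (0.0626), without Thpok-RKF+ replicate 1 (0.0615), without the 5 libraries numbered 1 (log2 0.86, 0.173), without a filter on low counts (0.0514), and with only these groups in the fit (0.123). Over all genes, 3.65% to 6.10% passed in those settings, against 7.18% in the main fit. The Smad3 difference between Thpok-RKF- CD8 SP and WT CD8 SP (2.05-fold, log2 1.03 ± 0.31, adjusted p = 0.0301) was lost without WT CD8 SP replicate 2 (adjusted p = 0.0976) or 3 (0.0989), without Thpok-RKF- CD8 SP replicate 2 (0.0970) or 3 (0.0605), and without a filter on low counts (0.0973). Over all genes, 11.8% to 13.2% passed with 1 of those libraries left out and 8.46% without the filter, against 18.3% in the main fit.

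Smad7, the inhibitor that the pathway itself induces, had 75.3, 91.3 and 48.5 CPM in WT CD4 SP and 94.3, 66.8 and 61.2 in WT CD8 SP. Mutant libraries had 112, 91.8 and 95.5 CPM (Thpok-RKF- CD8 SP), 137, 101 and 103 (Thpok-RKF- CD4+CD8+), and 109, 78.5 and 85.6 (Thpok-RKF+ CD4+CD8+). In 4 of the 5 groups the library numbered 1 had the most Smad7, and no comparison passed. The Thpok-RKF- CD4+CD8+ libraries were all above the WT CD4 SP libraries (log2 0.67 ± 0.22, adjusted p = 0.0544). That difference passed without WT CD4 SP replicate 2 (adjusted p = 0.0278), by DESeq2 (0.0238) and with the replicate number as a block (0.0166).

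Skil encodes SnoN, a repressor of Smad complexes, and ran against Itgae between the WT groups. It was at 186, 190 and 178 CPM in WT CD4 SP and 85.3, 83.0 and 82.2 in WT CD8 SP, tight and well apart. Every mutant library was above the WT CD8 SP libraries, and only Thpok-RKF+ libraries reached the WT CD4 SP range, with levels of 121, 104 and 114 CPM in Thpok-RKF- CD8 SP, 164, 141 and 125 in Thpok-RKF- CD4+CD8+ and 180, 120 and 181 in Thpok-RKF+ CD4+CD8+. Skil was 2.21-fold higher in WT CD4 SP than in WT CD8 SP (log2 1.14 ± 0.15, adjusted p = 0.000107) and 1.64-fold lower in Thpok-RKF- CD8 SP than in WT CD4 SP (log2 -0.71 ± 0.15, adjusted p = 0.00429). Every Thpok-RKF- CD8 SP library was above every WT CD8 SP library, without passing (log2 0.43 ± 0.15, adjusted p = 0.0536). It passed with relative log expression size factors (adjusted p = 0.0384), by DESeq2 (0.0149), with the replicate number as a block (0.0354) and with only these groups in the fit (0.00831).

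Counted by comparison, the 10 genes gave these calls. Between WT CD4 SP and WT CD8 SP 5 passed, with Skil and Tgfbr3 higher in CD4 SP and Itgae, Eng and Itgb7 lower, where 18.0% of all genes tested passed. The median log2 fold change of the 10 genes was -0.17, against -0.03 over all genes. Mutant CD8 SP against WT CD8 SP also gave 5 (18.3% of all genes), with Eng, Tgfbr3 and Smad3 higher and Itgae and Itgb7 lower, and a median of 0.37 against 0.00. Mutant CD8 SP against WT CD4 SP gave 4 (17.5% of all genes), with Eng, Itgae and Smad3 higher and Skil lower, and a median of 0.36 against 0.00. These comparisons share control samples, so their calls are not independent.

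Between the mutant gates, CD4+CD8+ against CD8 SP without Thpok-RKF, only Itgae of the 10 passed, where 2.39% of all genes did. None of the 10 passed between Thpok-RKF+ and Thpok-RKF- CD4+CD8+ by edgeR, where 0.979% of all genes did, and none by DESeq2. At an unadjusted p below 0.05, 3 of the 10 passed, where 14.3% of all genes did, and the median log2 fold change was -0.32, against 0.01 over all genes. Against WT CD4 SP, Thpok-RKF- CD4+CD8+ cells gave 4, all higher (Eng, Itgae, Smad3 and Itgb7), where 17.4% of all genes passed and 9.06% were higher. DESeq2 gave 7, adding Tgfbr2, Smad7 and Tgfb1, but it also passed more genes in all, 4034 against 2885 by edgeR. Thpok-RKF+ CD4+CD8+ cells gave 3, all higher (Eng, Itgae and Smad3), where 7.18% of all genes passed and 4.3% were higher. Medians in these last 2 comparisons were 0.57 and 0.18, against 0.01 over all genes in each. The Thpok-RKF+ libraries were widely spread: replicate 1 was high and replicate 2 low for Tgfbr2, Smad3 and Tgfb1.

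**Figure D3:**
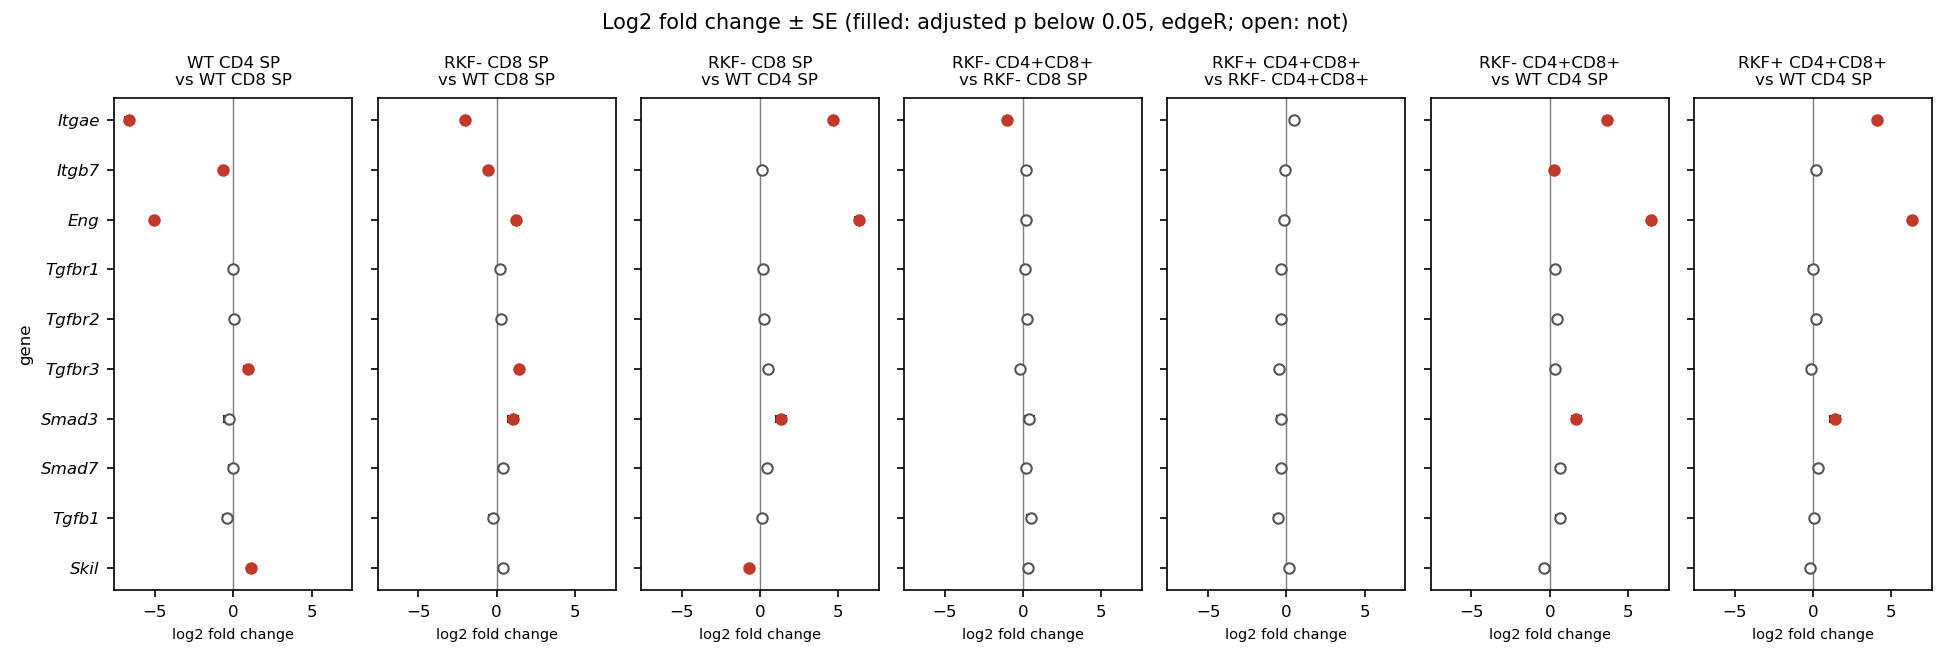
Log2 fold change (horizontal, with SE as whiskers, most narrower than the symbol) of the 10 genes (vertical) in the 7 comparisons, 1 panel each, first group over second; filled points passed at an adjusted p below 0.05 and open points did not. Itgae and Eng are far from 0 wherever WT CD4 SP is compared, and no point is filled between Thpok-RKF+ and Thpok-RKF- CD4+CD8+.

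Other genes of the pathway were read from 5 lists, of which 49 of 61 genes were tested. In WT CD4 SP against WT CD8 SP 15 passed, 8 higher and 7 lower, where 18.0% of all genes did, and 9 passed without WT CD4 SP replicate 1, where 12.6% did. Pmepa1, which a Smad-dependent response induces and which restrains the receptor signal, was at 32.1, 36.6 and 36.9 CPM in WT CD4 SP and 72.8, 74.9 and 72.8 in WT CD8 SP (log2 -1.06 ± 0.10, adjusted p = 6.46e-06). Id2, a response gene of TGF-beta family signals, was also lower in WT CD4 SP (log2 -1.18 ± 0.16, adjusted p = 0.000185). The integrin chain genes Itga6 (log2 1.00 ± 0.13, adjusted p = 0.00012) and Itgb3 (log2 1.88 ± 0.29, adjusted p = 0.000404) were higher.

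In Thpok-RKF- CD8 SP against WT CD8 SP 10 of the 49 passed, 3 higher and 7 lower, a share near the 18.3% of all genes, so the count is no result about the lists. The lower ones included the response genes Id2 (62.8 to 89.9 CPM against 156 to 199, log2 -1.34 ± 0.16, adjusted p = 4.43e-05), Id3 (33.1 to 79.7 CPM against 297 to 690, log2 -3.12 ± 0.44, adjusted p = 0.000162) and Klf10 (23.6 to 37.6 CPM against 69.2 to 83.0, log2 -1.31 ± 0.22, adjusted p = 0.000762). Of the 7 response genes tested, 3 were lower and none higher, where 18.3% of all genes passed in either direction. The list median of -1.31, against 0.00 over all genes, is the value of Klf10. Smad7, which the pathway also induces, had the higher mean in Thpok-RKF- CD8 SP (99.7 against 74.1 CPM) without passing. Pmepa1, which a Smad-dependent response induces, was lower there (53.8 to 63.2 CPM against 72.8 to 74.9, log2 -0.35 ± 0.10, adjusted p = 0.0276 by edgeR). Whether the response to TGF-beta differed was not tested. Smurf1, a ubiquitin ligase that works with Smad7, was higher (log2 0.81 ± 0.13, adjusted p = 0.000441). Id3 was lowest in the library numbered 1 in all 5 groups, and Thpok-RKF- CD8 SP and WT CD8 SP libraries still did not overlap.

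Against WT CD4 SP, Thpok-RKF- CD8 SP cells gave 10 of 49, 3 higher and 7 lower, near the 17.5% of all genes, and 6 without Thpok-RKF- CD8 SP replicate 2, where 9.22% of all genes passed. Pmepa1 was higher (53.8 to 63.2 CPM, log2 0.72 ± 0.10, adjusted p = 0.000234), and Id3 (log2 -2.57 ± 0.43, adjusted p = 0.000958) and Itga6 (log2 -0.73 ± 0.13, adjusted p = 0.00146) were lower. Lrrc32 encodes GARP, which holds latent TGF-beta on regulatory T cells. It had no count in the 3 Thpok-RKF- CD8 SP libraries and 14.4, 33.8 and 27.2 CPM in WT CD4 SP, which is at least 1150-fold lower at a floor of 3 counts over the group (adjusted p = 0.000101). The floor covers counting error only. Foxp3 moved with it in this comparison, at 2.27 to 3.85 CPM in Thpok-RKF- CD8 SP and 31.5 to 53.7 in WT CD4 SP. The 6 regulatory T cell markers summed to 142 to 216 CPM against 312 to 405. Lrrc32 was also lower than in WT CD8 SP, at no count against 0.0266, 1.25 and 2.03 CPM (adjusted p = 0.00447 by edgeR). There the markers did not move with it: 3 of the 6 were higher in Thpok-RKF- CD8 SP and 1 lower. The part of such cells in the Lrrc32 result was not tested.

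Between the mutant gates, 4 of 49 passed in CD4+CD8+ over CD8 SP cells, all higher, where 2.39% of all genes passed. Lrrc32 had 19.7, 14.5 and 6.31 CPM in CD4+CD8+ cells against no count, at least 619-fold higher at the same floor (adjusted p = 0.000787), and Foxp3 was at 50.1, 24.0 and 22.4 CPM there. Id2 was 141 to 167 CPM against 62.8 to 89.9 (log2 1.07 ± 0.16, adjusted p = 0.00183). The calls of Smurf2, another ubiquitin ligase of the pathway (log2 0.63 ± 0.15, adjusted p = 0.0382), and Klf10 (log2 0.92 ± 0.22, adjusted p = 0.0434) were narrow. Leaving out any 1 library of either group ended the Smurf2 call (adjusted p from 0.0804 to 0.149), and leaving out any but Thpok-RKF- CD8 SP replicate 1 ended that of Klf10 (0.0513 to 0.235), as did the replicate number as a block (0.0588). Only 2 or 3 genes passed with 1 library left out, where 1.25% to 1.80% of all genes passed. Without the 5 libraries numbered 1, 7 passed, where 3.09% of all genes did. DESeq2 gave 8, and passed 784 genes in all against 396 by edgeR.

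A single pathway gene, Acvrl1, passed between Thpok-RKF+ and Thpok-RKF- CD4+CD8+ cells. Acvrl1 encodes ALK1, a type I receptor that acts with endoglin. It was at 42.7, 27.6 and 41.9 CPM with Thpok-RKF and 88.4, 74.3 and 90.7 without (log2 -1.17 ± 0.17, adjusted p = 0.00337), and it did not pass with only these groups in the fit (0.0672). The count of 1 of 49, where 0.979% of all genes passed, became 8 without the 5 libraries numbered 1, 5 without Thpok-RKF+ replicate 1, 4 by DESeq2 and 2 with the replicate block, and was 0 with only these groups in the fit. The share of all genes passing was 10.7% without the libraries numbered 1 and 9.84% without Thpok-RKF+ replicate 1, so the 5 are at the background share. It was 1.37% with the replicate block and 0.330% with only these groups in the fit. DESeq2 passed 706 genes in all against 162 by edgeR. Acvrl1 was also lower in Thpok-RKF+ CD4+CD8+ than in WT CD4 SP, where it had 140, 113 and 117 CPM (log2 -1.72 ± 0.17, adjusted p = 1.3e-05).

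Against WT CD4 SP, 12 of 49 passed in Thpok-RKF- CD4+CD8+ cells, 7 higher and 5 lower (17.4% of all genes), and 8 in Thpok-RKF+ CD4+CD8+ cells, 4 higher and 4 lower (7.18%). The 12 became 7 without WT CD4 SP replicate 3 or Thpok-RKF- CD4+CD8+ replicate 1 or 2, and 6 without its replicate 3, settings in which 8.50% to 10.5% of all genes passed. Pmepa1 was higher in both, at 64.9 to 72.8 CPM (log2 1.00 ± 0.10, adjusted p = 1.97e-05) and 80.6 to 82.5 CPM (log2 1.22 ± 0.10, adjusted p = 2.17e-06). Id2 was higher as well (log2 0.91 ± 0.16, adjusted p = 0.00226, and log2 0.99 ± 0.16, adjusted p = 0.00134), and Itga6 lower (log2 -0.71 ± 0.13, adjusted p = 0.00255, and log2 -1.16 ± 0.13, adjusted p = 5.14e-05). Trim33, a nuclear partner of Smad2 and Smad3, was higher in Thpok-RKF- CD4+CD8+ (log2 0.91 ± 0.19, adjusted p = 0.00538).

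**Figure D4:**
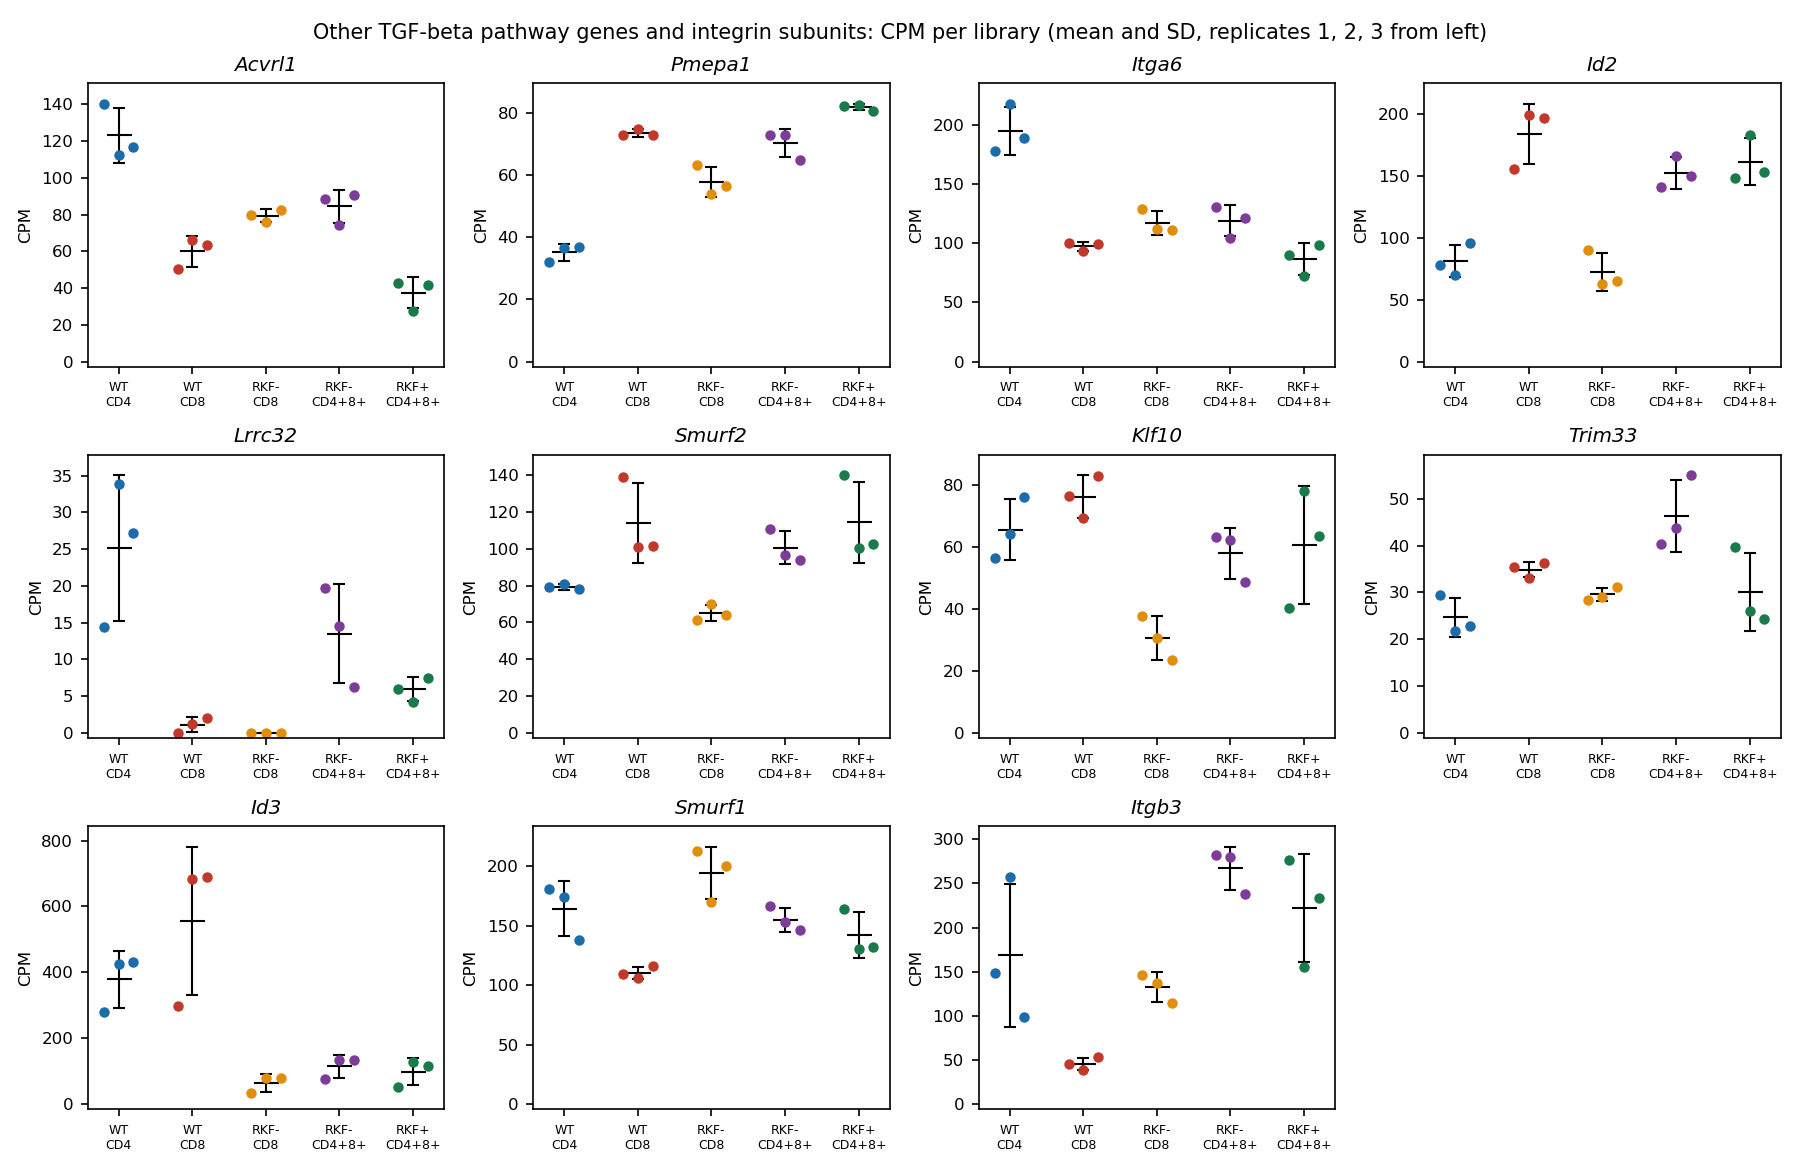
CPM (vertical axis, linear, from 0) per library of the 11 other pathway and integrin genes named for the 7 comparisons, with groups on the horizontal axis; points are replicates 1, 2 and 3 from left to right, and bars with whiskers are the mean and SD. Acvrl1 is lowest in Thpok-RKF+ CD4+CD8+ (27.6 to 42.7 CPM), Pmepa1 lowest in WT CD4 SP (32.1 to 36.9 CPM), and Lrrc32 has no count in Thpok-RKF- CD8 SP.

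By Pearson correlation of log2 CPM over the 15 libraries, among 8338 candidate genes, those most like Itgae were Tagln2 (r = 0.980), Nkg7 (0.978), Bace1 (0.967), Adgrg5 (0.967) and Zyx (0.960). The libraries share groups, so these values mainly describe group levels, and r does not measure how large a change is. Nkg7, a granule gene of cytotoxic cells, was at 1.26 to 5.47 CPM in WT CD4 SP, 1065 to 1327 in WT CD8 SP and 121 to 245 in the mutant libraries. Adgrg5, an adhesion-type receptor gene, was at 1.76 to 4.78, 557 to 638 and 81.1 to 238 CPM. Among the mutants it did not follow the order of Itgae. Adgrg5 was higher in Thpok-RKF+ CD4+CD8+ (232 to 238 CPM) than in Thpok-RKF- CD8 SP (116 to 128 CPM, log2 0.92, adjusted p = 0.0278 by edgeR). Itgae was the other way there, in the narrow step that was lost when single libraries were left out. Tagln2 and Zyx, genes of the actin cytoskeleton, had narrower ranges, with Tagln2 at 116 to 138 CPM in WT CD4 SP and 387 to 458 in WT CD8 SP. Of the 10 genes themselves, Itgb7 (r = 0.78) and Eng (0.76) were nearest to Itgae over the libraries and Skil was farthest (-0.83).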

How the data were processed

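RNA was extracted with an RNeasy Plus Micro kit (Qiagen), libraries were made with SMARTer Ultra Low Input reagent (Takara), and 101 bp pairs were read on a NovaSeq, per the labels' protocols. The submitters' processing notes list STAR, HTSeq, Trimmomatic, DESeq2, bcl2fastq 2.17 and the build mm39, without roles. The annotation and the strand setting were not given in the sources used here. The authors deposited raw counts per gene, as a table and per library, identical in 15 of 15 libraries. A table of normalised values by the authors was not used here. A further 3 columns of the counts table, whose names fit no sample, were left aside. Each library's 5 summary lines, which name no gene (15.9% to 21.0% of reads), entered neither library sizes nor tests. Replicates differed beyond sampling noise (chi-square over degrees of freedom 11.1 to 190.4).

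Counts were tested with edgeR 4.0.16 (R 4.3.3): TMM normalisation, the filterByExpr filter (minimum count 10, minimum total 15), a quasi-likelihood fit of group means over 15 libraries, and Benjamini-Hochberg adjustment over 16550 genes at 0.05. SE is the absolute log2 fold change over the square root of F. The script was tested on simulated data. Beyond 7 comparisons, 3 more group pairs were tested for every gene. They are read for the 10 genes only where groups neighbour in the order of a gene's levels. Adgrg5 is also read between Thpok-RKF+ CD4+CD8+ and Thpok-RKF- CD8 SP. The genes, lists, marker lists and tests were chosen with earlier results of these data known. Named besides the 10 genes and the targeted genes were up to 4 listed pathway genes per comparison by smallest adjusted p, and the 5 genes most like Itgae (prior count 2, mean log2 CPM of at least 3, without Xist, Y-linked genes, predicted models or receptor segments). Outside this rule, Fpgs, Gm43422 and marker genes were named with their values known. So were Lrrc32 and Pmepa1 in Thpok-RKF- CD8 SP against WT CD8 SP. Those calls and that of Adgrg5 were not checked under the alternatives below. Alternatives tried were the DESeq2 Wald test (DESeq2 1.42.0), size factors by relative log expression, all genes with a count, only the compared groups, a replicate block, no libraries numbered 1, and leaving out each library. Their use on neighbouring pairs and on other pathway genes was added after seeing the data.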

Additional observations from a re-analysis of the deposited data

How the results depend on the processing

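The counts of genes passing between both WT groups, in Thpok-RKF- CD8 SP against either WT group, and in Thpok-RKF- CD4+CD8+ against Thpok-RKF- CD8 SP stayed within 1.5 times under every alternative run. Leaving out single libraries gave 5 to 5, 4 to 5, 4 to 4 and 1 to 1 genes for these, 0 to 1 between Thpok-RKF+ and Thpok-RKF- CD4+CD8+, and 3 to 6 and 2 to 3 for Thpok-RKF- and Thpok-RKF+ CD4+CD8+ against WT CD4 SP. Tgfb1 made the count 1 between Thpok-RKF+ and Thpok-RKF- CD4+CD8+ without the 5 libraries numbered 1, where 10.7% of all genes passed against 0.979% with them. DESeq2 gave 7 for Thpok-RKF- CD4+CD8+ against WT CD4 SP, and passed 4034 genes in all against 2885 by edgeR. The cause was not tested in either case. No called fold of the 10 genes moved over 1.5 times under any alternative run.

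Replicate numbers were not taken to pair samples: of 30 same-numbered pairs, deviations correlated at -0.05 to 0.22 and 5 were over 0.1. Each of those 5 joined libraries numbered 1. In every group the library numbered 1 also had the largest share of reads outside genes, 7.74% to 11.2%. What the libraries numbered 1 share was not tested. With the replicate block, the counts of the 10 genes were 5, 6, 5, 1, 0, 5 and 3 in the 7 comparisons in the order of the plot of fold changes, against 5, 5, 4, 1, 0, 4 and 3. The block also raised the shares of all genes tested that passed. In the same order they were 21.2%, 21.7%, 22.3%, 2.80%, 1.37%, 22.4% and 9.10%, against 18.0%, 18.3%, 17.5%, 2.39%, 0.979%, 17.4% and 7.18%.

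Some values near 0 that had passed no test changed sign. Between both WT groups, leaving out single libraries gave -0.10 to 0.14 for Tgfbr1, -0.063 to 0.24 for Tgfbr2 and -0.24 to 0.20 for Smad7 (log2), and Smad7 was 0.17 without the 5 libraries numbered 1. For Thpok-RKF+ CD4+CD8+ against WT CD4 SP the ranges were -0.20 to 0.21 for Tgfbr1, -0.046 to 0.36 for Tgfbr2, -0.35 to 0.0085 for Tgfbr3 and -0.29 to 0.35 for Tgfb1, with Tgfbr2 at -0.030 and Tgfb1 at -0.33 without the libraries numbered 1. Tgfbr1 in Thpok-RKF- CD4+CD8+ against CD8 SP was -0.026 without them. For Thpok-RKF+ CD4+CD8+ against WT CD8 SP, Tgfbr1 ran from -0.17 to 0.24, and was 0.0098 with relative log expression, 0.0080 by DESeq2 and 0.020 with only the compared groups. Against Thpok-RKF- CD8 SP, Eng ran from -0.18 to 0.16, Tgfbr2 from -0.27 to 0.12, Smad3 from -0.38 to 0.31 and Tgfb1 from -0.42 to 0.20, with Eng at -0.25 and Smad3 at -0.47 without the libraries numbered 1.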
